A study of Mus musculus with 32 samples.

Results

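The genes described here are 10 of the 57186 genes listed in the count table, chosen by name for their roles in making or removing superoxide and the peroxide formed from it. They were chosen with earlier results of these data known. Their counts and medians are therefore set beside those of all genes as a description, not as a test of the set. Cybb, Cyba and Nox4 encode oxidase subunits. Sod1, Sod2 and Sod3 encode the cytosolic, mitochondrial and extracellular superoxide dismutases. Cat encodes catalase of the peroxisome, Prdx3 and Prdx5 encode peroxiredoxins that remove peroxides in mitochondria and, for Prdx5, also in peroxisomes and the cytosol, and Ucp2 encodes a carrier of the inner mitochondrial membrane whose activity is linked to lower superoxide formation.

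Superoxide is made from oxygen by NADPH oxidases and, as a by-product, by the mitochondrial respiratory chain and by oxidases such as xanthine dehydrogenase. Superoxide dismutases turn it into hydrogen peroxide, and catalase, peroxiredoxins and glutathione peroxidases then break the peroxide down. In fat cells these oxidants are known both as signals and, when inflammation persists, as agents of insulin resistance.

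RNA came from 3T3-L1 cells, a mouse preadipocyte line, after differentiation into adipocytes with a hormone cocktail. There were 8 groups of 4 libraries, 32 in all: TNF-alpha (TNF) together with SCO, CAP7, ROSI or DMSO, and SCO, CAP7, ROSI or DMSO without TNF. Treatment lasted 24 h, and DMSO is the vehicle. ROSI is rosiglitazone, which activates PPARγ, a nuclear receptor needed for fat cell differentiation, and it was included to compare effects on PPARγ target genes. SCO is not defined in the labels, although the series title names an extract of Artemisia scoparia. The sources used here do not give the doses or say what CAP7 is. The labels number the 4 libraries of each group as biological replicates but do not say whether these were separate cultures, so the p-values measure the spread between these libraries, which may be technical.

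Libraries were sequenced from the 3' ends of mRNA and held 11.3 to 37.7 M counts each (M, 1000000 counts). Levels are given as normalized counts per 1000000 counts (CPM) and are compared between groups for the same gene, not between genes. Differences are log2 fold changes (n = 4 against 4, or 4 groups of 4 where a compound's effect is compared with and without TNF). A gene is said to rise, fall or differ where its Benjamini-Hochberg adjusted p from edgeR's quasi-likelihood test over 14428 tested genes was under 0.05. The value after ± is a standard error, unless marked SD, worked out from the log2 fold change and the F statistic of that test. It draws on the spread within all 8 groups, not on the compared libraries alone. Of the 10 genes 9 were tested, and Cyba was not, because it had almost no counts. Comparisons of the 3 compounds with DMSO share the DMSO libraries, so their values stand side by side and are not independent of each other. The balance of calls depended on the scaling: 49.2% to 62% of the genes called in the comparisons of a compound with DMSO were higher, and 27.8% to 44.2% when libraries were scaled by their totals alone. In the pairs of compounds these shares were 39.9% to 50.2%, and 57% to 72% with totals alone. With totals alone the median log2 fold change of all genes was -0.13 for CAP7 and -0.17 for ROSI without TNF, beside -0.02 and -0.03 in the scaling used here, and with TNF it was -0.10 and -0.16, beside 0.00 for both.

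The libraries carried the markers of fat cells that the label calls for. All 8 adipocyte markers (Adipoq, Fabp4, Plin1, Cidec, Lipe, Pparg, Cebpa, Lpl) were detected in every group. With TNF their summed level was 33113 to 40327 CPM with SCO, 35968 to 44578 with CAP7, 52041 to 65051 with ROSI and 12376 to 14435 with DMSO. Without TNF it was 63325 to 71092 CPM with SCO, 53530 to 66288 with CAP7, 70720 to 83867 with ROSI and 41481 to 43932 with DMSO. The sum was thus lower with TNF and higher with each compound, as were Sod1, Cat, Prdx3 and Ucp2 below. The part of these markers in those results was not tested. Taken singly, all 8 markers fell with TNF in vehicle-treated cells, where 27.5% of all tested genes fell. Without TNF, SCO, CAP7 and ROSI raised 4, 6 and 6 of the 8 and lowered 1 each (19.3%, 30.3% and 37.4% of all genes called). With TNF they raised 7, 8 and 7 and lowered none (21.3%, 32.2% and 35.9%). Of 8 preadipocyte markers Dpp4 was at 0 in every group and 5 were tested, of which TNF raised 1 and lowered 2 in vehicle-treated cells, where 54.2% of all tested genes were called. SCO, CAP7 and ROSI lowered 4, 5 and 5 of these 5 without TNF (19.3%, 30.3% and 37.4% of all genes called) and 4, 3 and 3 with it (21.3%, 32.2% and 35.9%), raising none. Throughout, a share of all genes called counts both directions unless a direction is given, so the share in 1 direction is smaller. In RNA from whole cultures, fewer cells of a type and less RNA per cell cannot be told apart.

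The promoters of 4 genes are shown because the results below turn on them: Cybb, which was detected almost only with TNF, Sod2, which rose with TNF and with each compound, and Cat and Prdx3, which are 2 of the 4 genes that rose with each compound and fell with TNF. Those 2 were chosen because they hold a match to a nuclear receptor repeat, and the other two, Sod1 and Ucp2, hold none. Each runs from 250 bases before to 50 bases after the gene's start, 5′ to 3′ on the gene's strand, from RefSeq on GRCm38.p6, where 9 of the 10 genes had an entry. Capitals mark a CCAAT box in Cybb, a match to the NF-κB consensus in Sod2, and in Cat and Prdx3 a match to a direct repeat of the nuclear receptor half-site with 1 base between (AGGTCA on each side) that allows up to 2 mismatches among its 12 fixed bases.
Cybb: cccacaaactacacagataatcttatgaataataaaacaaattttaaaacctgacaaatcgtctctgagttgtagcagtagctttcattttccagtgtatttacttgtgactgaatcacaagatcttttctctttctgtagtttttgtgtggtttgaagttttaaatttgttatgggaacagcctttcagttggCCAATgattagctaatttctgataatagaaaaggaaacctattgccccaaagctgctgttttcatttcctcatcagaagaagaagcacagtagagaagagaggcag
Sod2: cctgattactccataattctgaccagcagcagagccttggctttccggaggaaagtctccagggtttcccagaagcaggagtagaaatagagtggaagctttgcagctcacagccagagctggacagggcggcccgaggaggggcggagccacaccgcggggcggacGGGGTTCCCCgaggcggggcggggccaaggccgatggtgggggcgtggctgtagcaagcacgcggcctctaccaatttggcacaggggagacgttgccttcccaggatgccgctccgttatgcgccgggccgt
Cat: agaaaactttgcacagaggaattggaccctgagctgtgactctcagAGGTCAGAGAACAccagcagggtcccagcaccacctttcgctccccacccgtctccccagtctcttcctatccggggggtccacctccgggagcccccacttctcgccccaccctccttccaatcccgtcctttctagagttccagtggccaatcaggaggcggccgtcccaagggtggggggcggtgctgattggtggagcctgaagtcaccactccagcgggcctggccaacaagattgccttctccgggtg
Prdx3: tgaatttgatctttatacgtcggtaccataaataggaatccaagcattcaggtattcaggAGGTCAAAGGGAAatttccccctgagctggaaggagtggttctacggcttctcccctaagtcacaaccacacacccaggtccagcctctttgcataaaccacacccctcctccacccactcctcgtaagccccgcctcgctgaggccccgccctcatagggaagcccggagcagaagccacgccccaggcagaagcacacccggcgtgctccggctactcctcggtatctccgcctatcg

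The Cybb window lies at chrX:9469275-9469574 on the minus strand, the Sod2 window at chr17:13007589-13007888 on the plus strand, the Cat window at chr2:103485104-103485403 on the minus strand and the Prdx3 window at chr19:60874489-60874788 on the minus strand, all on GRCm38.p6. Positions below are counted from the start, with the first transcribed base as 1 and no position 0, and both strands were searched. The NF-κB consensus matched in Sod2 at -83 and in Cat at -116, and in 8.46% of all 32851 promoters of this length. The direct repeat with up to 2 mismatches matched in Cat at -204, in Cyba at -158 and in Prdx3 at -190, and in 3.86% of all promoters, while no member and 0.0396% of all promoters held it without a mismatch. In both Cat and Prdx3 the match includes an exact half-site AGGTCA, which 16.3% of all promoters held and no other member did. The GC box GGGCGG was in 8 of the 9 promoters, Cybb being the exception, and in 35.7% of all promoters. The CCAAT box was in Cat, Sod1, Sod2 and Cybb (37.4% of all), the TATA box TATAAA in Sod1 and Prdx3 (13.6%), and the antioxidant response element core TGANNNNGC in Ucp2, Sod1 and Prdx5 (41.3%). These are matches of letters only, and some overlap.

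Cybb was detected almost only with TNF and passed the filter on low counts only through those libraries. The counts of members called for TNF and for each compound against DMSO therefore leave it out. TNF moved the other 8 tested genes in vehicle-treated cells, where 54.2% of all tested genes were called. Sod2, Sod3 and Prdx5 rose (26.7% of all genes did), and Cat, Ucp2, Sod1, Prdx3 and Nox4 fell (27.5%). The median log2 fold change of these 8 was -0.86, beside -0.01 over all genes. Within the dismutases the directions were opposite: the transcripts of the mitochondrial and extracellular enzymes rose while that of the cytosolic enzyme fell.

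Cybb (ENSMUSG00000015340), the catalytic subunit of the NADPH oxidase known from phagocytes, had 54.6, 62.2, 65.3 and 72.7 CPM in the 4 libraries with TNF plus DMSO, against 0, 0.129, 0 and 0.0840 CPM in the libraries with DMSO alone. The groups were far apart, and no library without TNF held more than 3 counts of the gene. Summed over libraries these were 6246 counts with TNF and 3 without, a ratio of 1400 after scaling by library size, with a 95% counting interval of 478 to 6780 that covers counting error only.

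The increase was present with every compound. Cybb summed to 6488 counts with TNF plus SCO against 5 with SCO, a ratio of 816 (counting interval 349 to 2510). With CAP7 the sums were 4300 and 4 counts, a ratio of 998 (389 to 3660). With ROSI they were 7174 and 5 counts, a ratio of 1230 (528 to 3800). These intervals overlap one another, and since the libraries without TNF held 0 to 3 counts each, the data give no usable estimate of how a compound changed the size of the increase.

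Cyba (ENSMUSG00000006519), the membrane partner that the Cybb protein needs for stability in phagocytes, was at 0 counts in 30 of the 32 libraries and had 8 counts in all, in 2 libraries of TNF plus SCO. A floor of 3 counts, set by convention, corresponds to 0.0796 to 0.265 CPM when scaled by library totals alone. A level below it rests on fewer than 3 counts in a library and cannot be measured well at this depth. On GRCm38 the gene overlaps Gm20388 on the opposite strand, which is not among the listed genes. The strand setting and the handling of reads that fit several genes are not given. Whether reads of Cyba were lost in the counting was therefore not tested, and its 0 counts may not be its level. Cytosolic partners of the oxidase were also near 0: over 32 libraries Ncf1 had 23 counts, Ncf4 18 and Rac2 3. Cybc1, a chaperone of the Cybb protein, and the small GTPase Rac1 were expressed in every group, and both were slightly higher with TNF than without in vehicle-treated cells (0.50 ± 0.0801 and 0.18 ± 0.0459, edgeR adjusted p = 1.46e-06 and 7.74e-04).

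**Figure D1:**
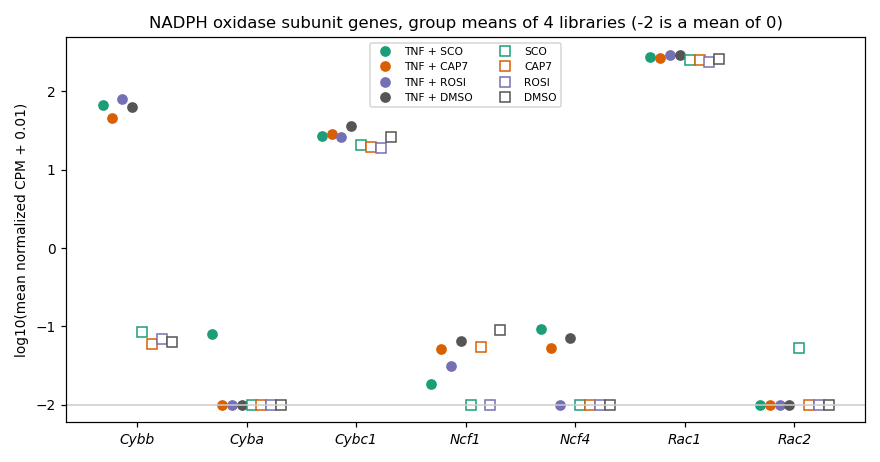
Mean level in each group of 7 genes of NADPH oxidase subunits, of the chaperone Cybc1 and of the small GTPases Rac1 and Rac2. Values are the log10 of the mean of 4 libraries in CPM plus 0.01. Circles are groups with TNF and squares groups without. Cybb is high in the 4 groups with TNF only, Cybc1 and Rac1 are expressed in all 8 groups, and Cyba, Ncf1, Ncf4 and Rac2 are at or near 0 throughout.

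Because Cybb is best known from leukocytes, their markers were set beside it. The summed level of 10 leukocyte markers was 27.3 to 50.9 CPM over the libraries with TNF and 4.2 to 14.9 CPM over those without. Of the 10, Adgre1, Tyrobp and Laptm5 had no count in any group, Ptprc and Itgam had none in at least 6 of the 8, and 4 passed the filter, of which Cd68 (3.54 ± 0.340) and Cd14 (1.65 ± 0.147) rose with TNF in vehicle-treated cells and none fell (54.2% of all genes called). With TNF, Cd68 averaged 6.12 ± 0.415 CPM with SCO, 4.19 ± 1.17 with CAP7, 4.87 ± 0.557 with ROSI and 10.5 ± 1.41 with DMSO (SD, n = 4 each). The part of other cells in the Cybb level was not tested beyond these values.

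With TNF present, the compounds set different levels of Cybb. The 4 libraries of TNF plus CAP7 had 44.9, 37.1, 49.9 and 49.0 CPM, against 54.6, 62.2, 65.3 and 72.7 CPM with TNF plus DMSO. Every CAP7 library was below every DMSO library, a log2 fold change of -0.49 ± 0.120 (edgeR adjusted p = 0.00127). With TNF plus ROSI the values were 92.1, 81.0, 65.5 and 85.8 CPM. The ROSI libraries were mostly higher than those with TNF plus DMSO but overlapped them, with a log2 fold change of 0.35 ± 0.119 and an edgeR adjusted p of 0.0205. This call was lost when libraries were scaled by totals alone, at 0.19, and when any of 4 libraries was left out (TNF plus DMSO replicates 1 and 2 and TNF plus ROSI replicates 1 and 4), at 0.26 to 0.32. With TNF plus SCO the values were 65.9, 61.3, 70.5 and 73.3 CPM, which overlapped TNF plus DMSO, and the log2 fold change of 0.09 had a 95% interval of -0.15 to 0.33.

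Directly compared with TNF present, CAP7 gave less Cybb than ROSI (-0.84 ± 0.120, edgeR adjusted p = 5.82e-06), and SCO gave more than CAP7 (0.58 ± 0.120, edgeR adjusted p = 0.00145). Neither pair overlapped. SCO and ROSI were not called different, at -0.26 with an interval of -0.50 to -0.02.

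**Figure D2:**
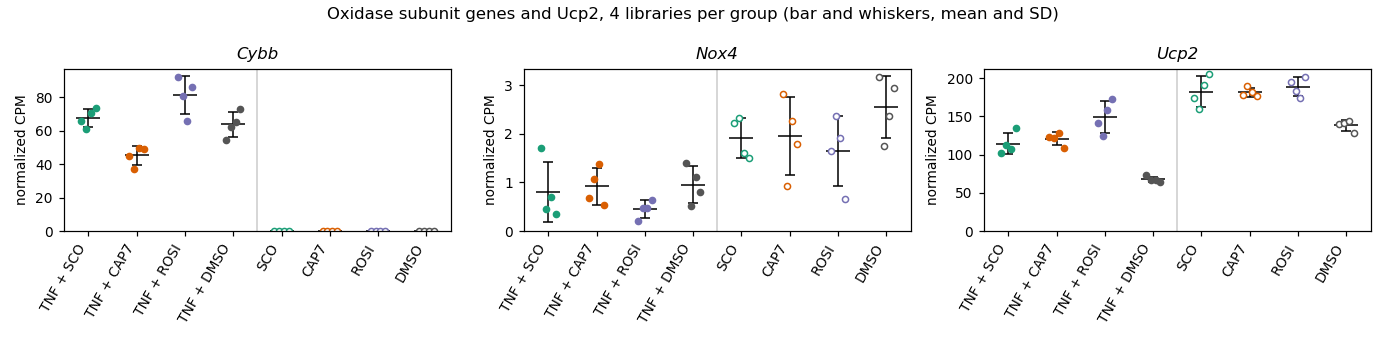
Normalized CPM of Cybb, Nox4 and Ucp2 in each library (points; filled with TNF, open without), with the mean and SD of the 4 libraries per group. Cybb is near 0 in all libraries without TNF and lowest with CAP7 among the groups with TNF, and Ucp2 is lowest in TNF plus DMSO, where it is 64.7 to 72.6 CPM.

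Nox4 (ENSMUSG00000030562), an oxidase that is active without cytosolic partners and releases mainly hydrogen peroxide, was low throughout. It had 1.40, 0.510, 1.11 and 0.800 CPM with TNF plus DMSO, against 3.17, 1.75, 2.37 and 2.94 CPM with DMSO. All 4 values with TNF were below all 4 without, a log2 fold change of -1.40 ± 0.415 (edgeR adjusted p = 0.00421). These levels rest on 10 to 34 counts per library with TNF and 27 to 73 without.

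In the other treatments TNF lowered Nox4 as well. The log2 fold change was -1.82 ± 0.458 in ROSI-treated cells, -1.21 ± 0.428 in SCO-treated cells and -1.09 ± 0.417 in CAP7-treated cells. The last of these calls was lost when any of 4 libraries was left out (CAP7 replicates 1 and 3 and TNF plus CAP7 replicates 1 and 4), at -0.85 to -1.02, and the SCO call when either of 2 was (TNF plus SCO replicates 2 and 4), at -1.01 and -0.998. In SCO- and CAP7-treated cells the libraries with and without TNF overlapped. No compound changed Nox4 by the threshold. The lowest value was ROSI with TNF, at 0.207, 0.477, 0.470 and 0.643 CPM, a log2 fold change against TNF plus DMSO of -1.06 ± 0.465 with an interval of -2.0 to -0.12 and an edgeR adjusted p of 0.0735. It passed the threshold when scaled by totals alone (-1.22), in DESeq2 (-1.08) and without replicate 2 of TNF plus DMSO (-1.27).

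Other sources of superoxide came from a list of 16 oxidase genes, of which 5 were tested. With TNF in vehicle-treated cells 3 rose and 1 fell, where 54.2% of all genes were called (26.7% higher, 27.5% lower), with a median of 0.18 beside -0.01 over all genes. Xdh, xanthine dehydrogenase, which can make superoxide in its oxidase form, averaged 275 ± 17.7 CPM with TNF plus DMSO and 99.6 ± 10.1 CPM with DMSO (SD, n = 4 each), a log2 fold change of 1.46 ± 0.0995. Aox1, aldehyde oxidase, fell (-1.06 ± 0.238).

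Without TNF, SCO, CAP7 and ROSI raised none of these 5 and lowered 2, 3 and 3 (19.3%, 30.3% and 37.4% of all genes called), and with TNF they raised 0, 1 and 1 and lowered 2 each (21.3%, 32.2% and 35.9%). The medians were -0.33, -0.41 and -0.55 without TNF and -0.06, -0.11 and -0.29 with TNF. Each compound lowered Xdh in both states, which is the direction opposite to TNF. Without TNF it averaged 68.5 CPM with SCO, 53.7 with CAP7 and 39.7 with ROSI, against 99.6 with DMSO, and the log2 fold changes were -0.54, -0.89 and -1.32. With TNF it averaged 178, 185 and 155 CPM in the same order, against 275 with DMSO, at -0.62, -0.57 and -0.82. Cybc1 fell as well in all 6 comparisons, by 0.33 to 0.47 on the log2 scale. Noxo1, an organizer subunit of another oxidase complex, was at 2.26 to 3.77 CPM on average, fell with CAP7 (-0.54) and ROSI (-0.55) without TNF and rose with both in its presence (0.57 and 0.61).

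Sod2 (ENSMUSG00000006818), the manganese dismutase of the mitochondrial matrix, had 941, 1009, 967 and 1051 CPM with TNF plus DMSO, against 197, 220.1, 220.0 and 212 CPM with DMSO. The groups did not overlap, and the log2 fold change was 2.22 ± 0.0644 (edgeR adjusted p = 5.75e-27). Each compound raised it further. The libraries of TNF plus SCO had 1352, 1424, 1278 and 1408 CPM, those of TNF plus CAP7 1593, 1598, 1729 and 1449.6 CPM and those of TNF plus ROSI 1817, 1765, 1703 and 1894 CPM. All 12 lay above all 4 of TNF plus DMSO, with log2 fold changes of 0.46 ± 0.0613 with SCO, 0.68 ± 0.0614 with CAP7 and 0.86 ± 0.0616 with ROSI.

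Without TNF each compound raised Sod2 as well. It had 309, 302, 311 and 332 CPM with SCO, 286, 322, 309.6 and 314 CPM with CAP7 and 400.5, 375, 333 and 384 CPM with ROSI. Again none overlapped DMSO, with log2 fold changes of 0.56 ± 0.0624, 0.54 ± 0.0622 and 0.81 ± 0.0624 in that order. The change that TNF made was 2.12 in SCO-treated, 2.37 in CAP7-treated and 2.27 in ROSI-treated cells. The difference of these from the 2.22 in vehicle-treated cells was not called for any compound, with intervals of -0.28 to 0.08 for SCO, -0.03 to 0.32 for CAP7 and -0.13 to 0.22 for ROSI.

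Sod1 (ENSMUSG00000022982), the copper and zinc dismutase of the cytosol, had 1047, 1096, 958 and 1132 CPM with TNF plus DMSO, against 1961, 2145, 2269.9 and 1935 CPM with DMSO. Every library with TNF was lower, and the log2 fold change was -0.97 ± 0.0717. The compounds raised it in both states. Without TNF it had 2723, 2888, 2552 and 2767 CPM with SCO, 2527, 2745, 2779 and 2671 with CAP7 and 3093, 2972, 2908 and 3218 with ROSI, with log2 fold changes of 0.40 ± 0.0711, 0.37 ± 0.0711 and 0.55 ± 0.0712 against DMSO. No compound library overlapped the DMSO libraries.

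With TNF, Sod1 had 1514, 1835, 1452 and 1692 CPM with SCO, 1992, 1800.3, 1848 and 1657 with CAP7 and 2083, 1877, 2034 and 2253 with ROSI. These were again above every library of TNF plus DMSO, with log2 fold changes of 0.62 ± 0.0713, 0.79 ± 0.0714 and 0.96 ± 0.0716. The effect was larger with TNF than without for CAP7 and ROSI, by 0.42 ± 0.10 and 0.41 ± 0.10 in the test of the difference (edgeR adjusted p = 0.00288 and 0.00345). For SCO that difference was 0.22 with an interval of 0.02 to 0.43 and was not called. Sod1 overlaps Scaf4 on the opposite strand in the annotation of GRCm38 (19100 counts over the 32 libraries), and the strand setting of the counting is not given in the sources at hand.

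**Figure D3:**
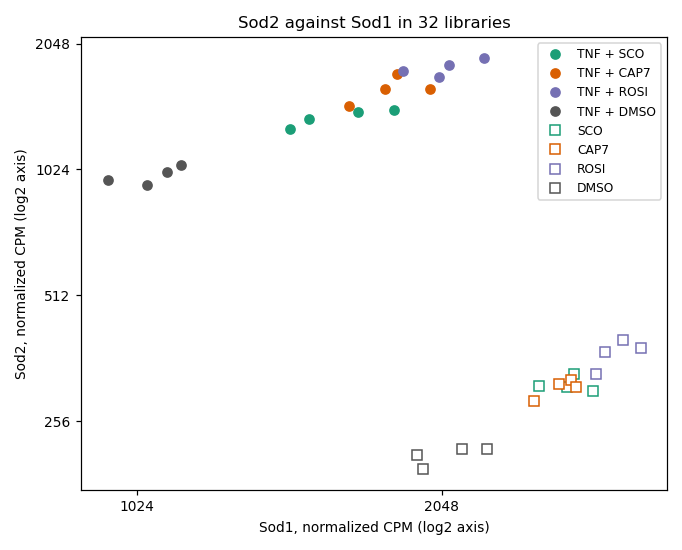
Level of Sod2 against Sod1 in the 32 libraries, both in normalized CPM on log2 axes; circles are libraries with TNF and squares those without. TNF puts the libraries lower on Sod1 and higher on Sod2, while within each state the compounds lie to the upper right of DMSO, with the ROSI libraries at or near the far end.

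TNF thus set the level of these 2 dismutases apart, whereas the compounds moved them together. The Pearson correlation of their log2 levels was 0.98 within the 16 libraries with TNF and 0.96 within the 16 without. This was not particular to the pair. Sod2 with Cat, Prdx3 and Ucp2 gave 0.932, 0.927 and 0.943 with TNF and 0.897, 0.925 and 0.906 without. Over all 32 libraries these were -0.723, -0.599 and -0.499, beside -0.562 for Sod2 with Sod1. These are descriptions only, since the libraries of a group share a treatment and both levels come from the same library.

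Sod3 (ENSMUSG00000072941), the secreted dismutase, had 127, 113, 128 and 131 CPM with TNF plus DMSO, against 88.8, 89.5, 92.0 and 92.2 CPM with DMSO. The groups did not overlap, and the log2 fold change was 0.46 ± 0.0874. It was the only dismutase gene that a compound lowered. CAP7 gave 75.7, 71.5, 62.0 and 67.6 CPM without TNF, all below DMSO, a log2 fold change of -0.39 ± 0.0883 (edgeR adjusted p = 7.21e-04). With TNF it gave 95.8, 104, 109 and 104 CPM, a log2 fold change of -0.27 ± 0.0864 (edgeR adjusted p = 0.0134), a call lost without replicate 1 of TNF plus CAP7, at -0.24.

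SCO and ROSI did not change Sod3 by the threshold. The log2 fold changes were -0.13 and -0.16 without TNF, with intervals of -0.31 to 0.05 and -0.34 to 0.02. With TNF they were -0.09 and -0.09. For ROSI the fall passed the threshold in both states when libraries were scaled by totals alone, at -0.30 without TNF and -0.24 with it, and without TNF also when replicate 3 of ROSI was left out, at -0.27. That ROSI library had 101 CPM, against 72.5 to 78.0 CPM in the other 3.

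In vehicle-treated cells catalase had the largest fall with TNF among the tested members. Cat (ENSMUSG00000027187) had 71.5, 87.5, 76.8 and 79.2 CPM with TNF plus DMSO, against 262, 231, 247 and 244 CPM with DMSO. The groups did not overlap, and the log2 fold change was -1.64 ± 0.0690 (edgeR adjusted p = 5.87e-22). All 3 compounds raised it in both states.

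Without TNF, Cat had 350.1, 389, 374 and 362 CPM with SCO, 277, 339.8, 313 and 317 with CAP7 and 407, 403, 415 and 380.3 with ROSI, with log2 fold changes of 0.58 ± 0.0669, 0.34 ± 0.0667 and 0.71 ± 0.0668. With TNF it had 144, 152, 152 and 143 CPM with SCO, 139.6, 142, 164 and 140.2 with CAP7 and 167, 154, 175 and 183 with ROSI, with log2 fold changes of 0.91 ± 0.0680, 0.90 ± 0.0680 and 1.11 ± 0.0682. Every compound library lay above every DMSO library of the same state, and the libraries with a compound and TNF still lay below those with DMSO and no TNF. The response of Cat was larger with TNF than without for each compound: in the test of that difference it was 0.33 ± 0.0949 for SCO, 0.55 ± 0.0949 for CAP7 and 0.40 ± 0.0948 for ROSI (edgeR adjusted p = 0.0368, 4.46e-05 and 0.00238). The SCO value lost its call without the filter on low counts (0.33) and when any of 7 libraries was left out, at 0.29 to 0.32. These were DMSO replicates 1 and 3, SCO replicates 1 and 4, TNF plus DMSO replicates 1 and 3 and TNF plus SCO replicate 2.

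Prdx3 (ENSMUSG00000024997), the peroxiredoxin of mitochondria, had 74.3, 65.9, 72.6 and 74.4 CPM with TNF plus DMSO, against 120.4, 115, 123 and 126 CPM with DMSO. It fell in every treatment, with log2 fold changes of -0.75 ± 0.0761 in vehicle-treated cells and -0.81, -0.75 and -0.65 in SCO-, CAP7- and ROSI-treated cells. Each compound raised it. Without TNF it had 175, 188, 199.6 and 187 CPM with SCO, 171, 193, 167 and 184 with CAP7 and 206, 209.9, 158 and 192 with ROSI, none overlapping DMSO, with log2 fold changes of 0.63 ± 0.0755, 0.56 ± 0.0752 and 0.66 ± 0.0753. With TNF it had 98.8, 118, 106 and 103 CPM with SCO, 105, 108, 116 and 96.9 with CAP7 and 113, 117, 130.0 and 128 with ROSI, again without overlap, with log2 fold changes of 0.57 ± 0.0757, 0.57 ± 0.0757 and 0.77 ± 0.0758. The difference between the states was not called, with intervals of -0.28 to 0.15 for SCO, -0.21 to 0.22 for CAP7 and -0.11 to 0.32 for ROSI.

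Prdx5 (ENSMUSG00000024953), the other peroxiredoxin, went the opposite way with TNF. It had 598, 593, 613 and 662 CPM with TNF plus DMSO, against 479, 476, 450.0 and 455 CPM with DMSO, a log2 fold change of 0.41 ± 0.0512 without overlap. The compounds left it near the DMSO level. Without TNF the log2 fold changes were 0.01 with SCO, 0.10 with CAP7 and -0.04 with ROSI, none of them called. With TNF plus CAP7 the libraries had 639, 663, 722 and 676 CPM and overlapped TNF plus DMSO, a change of 0.13 ± 0.0509 whose edgeR adjusted p of 0.0481 was lost in 5 other settings (0.03 to 0.13) and when any of 6 libraries was left out (0.10 to 0.14; TNF plus DMSO replicates 1 to 3 and TNF plus CAP7 replicates 2 to 4). With ROSI and no TNF it was lower when scaled by totals alone, at -0.18. Prdx5 overlaps Trmt112 on the opposite strand, which had 81968 counts over the 32 libraries.

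**Figure D4:**
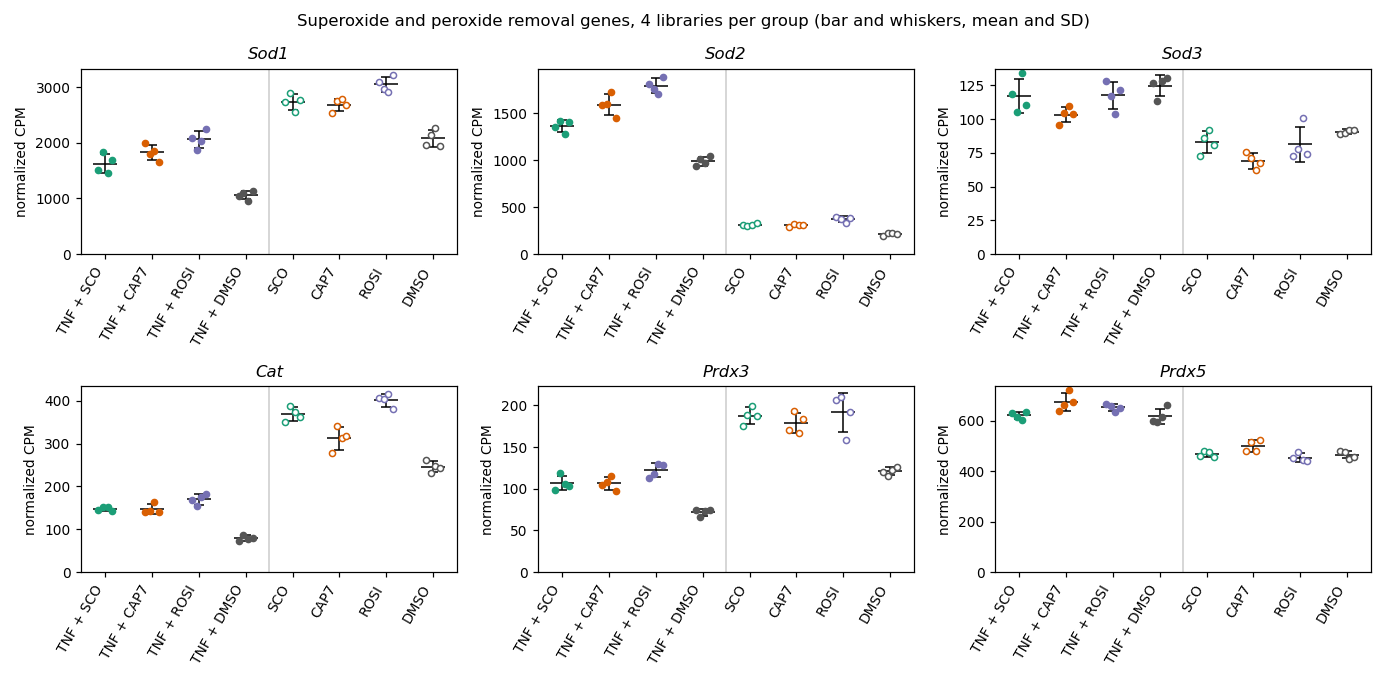
Normalized CPM of the 6 dismutase, catalase and peroxiredoxin genes in each library (points; filled with TNF, open without), with the mean and SD of the 4 libraries per group. Sod1, Sod2, Cat and Prdx3 are lowest with DMSO in both states, Sod3 is lowest with CAP7 in both, and Prdx5 is higher with TNF in every treatment.

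Ucp2 (ENSMUSG00000033685) had 72.6, 66.7, 66.2 and 64.7 CPM with TNF plus DMSO, against 141, 141, 143 and 128 CPM with DMSO, a log2 fold change of -1.03 ± 0.0857 without overlap. The compounds raised it. Without TNF it had 173, 159.8, 190.4 and 205 CPM with SCO, 178, 189.6, 182 and 177 with CAP7 and 195, 184, 174 and 202 with ROSI, with log2 fold changes of 0.40 ± 0.0844, 0.39 ± 0.0841 and 0.45 ± 0.0842. With TNF it had 103, 112, 108 and 134 CPM with SCO, 124, 122, 129 and 109 with CAP7 and 142, 125, 159 and 173 with ROSI, with log2 fold changes of 0.76 ± 0.0852, 0.84 ± 0.0852 and 1.15 ± 0.0855. All compound libraries were above the DMSO libraries of their state. On GRCm38 Ucp2 overlaps Dnajb13 on the opposite strand, which had 9 counts over the 32 libraries.

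The effect of ROSI on Ucp2 was larger with TNF than without by 0.70 ± 0.119 (edgeR adjusted p = 3.59e-05), and TNF lowered Ucp2 by only 0.33 on the log2 scale in ROSI-treated cells. For CAP7 the difference was 0.44 ± 0.119 (edgeR adjusted p = 0.00815). For SCO it was 0.36 with an interval of 0.12 to 0.60 and was not called, although it passed the threshold in DESeq2 and without the filter on low counts, both at 0.36, and without SCO replicate 4 (0.42) or TNF plus SCO replicate 1 (0.41).

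Counted over the 8 tested members other than Cybb, SCO without TNF raised 5 and lowered none. There 19.3% of all tested genes were called and 10.3% rose. CAP7 without TNF raised 5 and lowered 1, where 30.3% were called, 15.2% rose and 15% fell. ROSI without TNF raised 5 and lowered none, where 37.4% were called and 18.4% rose. With TNF, SCO raised 5 and lowered none (21.3% called, 13.2% higher). In that state CAP7 raised 6 and lowered 1 (32.2% called, 18% higher, 14.2% lower), and ROSI raised 5 and lowered none (35.9% called, 19.6% higher). The medians of these 8 members without TNF were 0.40, 0.35 and 0.50 for SCO, CAP7 and ROSI. With TNF they were 0.52, 0.62 and 0.81. These stand beside -0.01, -0.02 and -0.03 and 0.01, 0.00 and 0.00 over all genes. The other calls among the 8 were Sod3, lower with CAP7 in both states, and Prdx5, higher with CAP7 in the presence of TNF. Cybb, left out of these counts, was lower with CAP7 and higher with ROSI in the presence of TNF. Sod1, Sod2, Cat, Prdx3 and Ucp2 rose in each of the 6 comparisons, and none of these calls was lost in any alternative fit or with any library left out. Those 5 are named after their values were seen, so their common direction is a description.

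**Figure D5:**
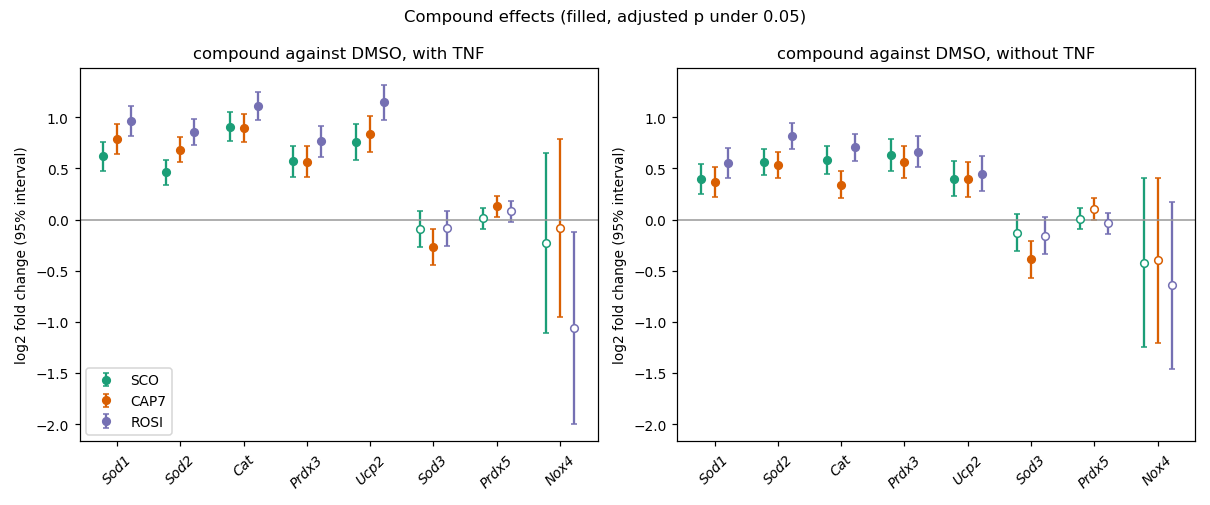
Log2 fold change of each compound against DMSO with its 95% interval, with TNF on the left and without on the right; filled points have an edgeR adjusted p under 0.05. Sod1, Sod2, Cat, Prdx3 and Ucp2 lie above 0 for each compound in both states, Sod3 lies below 0 with a call for CAP7 only, and Nox4 has intervals that include 0 for SCO and CAP7 in both states and for ROSI without TNF.

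Again without Cybb, TNF moved the same 8 members in each treatment, 3 higher and 5 lower, where 48.4% of all genes were called in SCO-treated cells (25% higher, 23.3% lower), 45.8% in CAP7-treated cells (23.4% higher, 22.4% lower) and 47.4% in ROSI-treated cells (24.9% higher, 22.5% lower). The medians of the 8 were -0.71, -0.57 and -0.45 in those treatments, beside 0.00, 0.00 and 0.01 over all genes. In the test of the difference between states, 1 member was called for SCO (4.64% of all genes, 3.51% in the same direction), 3 for CAP7 (16.2%, 10.3%) and 3 for ROSI (14.6%, 10.1%), all with a larger value in the presence of TNF.

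The compounds were next compared with each other, over 3 pairs in each state, with Cybb included in the counts. SCO and CAP7 gave lower values than ROSI in every called member. Without TNF, Sod2 was lower with SCO than with ROSI (-0.25 ± 0.0618), the only member called there (14.7% of all genes, 7.33% lower). Sod2 (-0.28 ± 0.0617) and Cat (-0.36 ± 0.0663) were lower with CAP7 than with ROSI, 2 members beside 11.7% of all genes (6.27% lower), and in DESeq2 4 members were called, with Sod1 and Sod3 added. Cat was higher with SCO than with CAP7 (0.24 ± 0.0664, edgeR adjusted p = 0.0218), the only member called there (6.04% of all genes, 3.01% higher). That call was lost without replicates 2 or 3 of SCO or replicate 1 of CAP7, at 0.19 to 0.23. Sod3 was higher with SCO than with CAP7 by 0.26, which passed the threshold with scaling by totals alone, in DESeq2, in a fit of those groups alone and without replicate 1 of SCO, at 0.26 to 0.32.

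With TNF, SCO gave less than ROSI for 4 members (14.4% of all genes, 8.64% lower): Sod1 (-0.35 ± 0.0711), Sod2 (-0.39 ± 0.0612), Ucp2 (-0.39 ± 0.0841) and Cat (-0.20 ± 0.0670). CAP7 gave less than ROSI for 3 (8.57%, 5.09% lower): Cybb, Ucp2 (-0.31 ± 0.0839) and Cat (-0.21 ± 0.0670). SCO and CAP7 differed in 2 (9.16%, 4.13% higher and 5.03% lower): Cybb, higher with SCO, and Sod2, lower with SCO (-0.22 ± 0.0612). Several of these were close to the threshold. The 2 Cat differences (edgeR adjusted p = 0.041 and 0.0403) were lost in 3 settings each and when any of 6 libraries of the pair was left out, at -0.16 to -0.20 for SCO and -0.18 to -0.22 for CAP7. These were replicates 1, 3 and 4 of TNF plus ROSI in both pairs, with replicates 1, 3 and 4 of TNF plus SCO or replicates 1, 2 and 4 of TNF plus CAP7. The Ucp2 difference between CAP7 and ROSI was lost in a fit of those groups alone (-0.29) and without replicate 4 of TNF plus CAP7 or replicates 3 or 4 of TNF plus ROSI, at -0.24 to -0.28. The Sod2 difference between SCO and CAP7 was lost in a fit of those groups alone (-0.22) and without replicate 3 of TNF plus SCO or of TNF plus CAP7, at -0.19 and -0.18.

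Where no difference was called, the intervals still allow one. Without TNF, SCO and CAP7 gave intervals of -0.12 to 0.17 for Sod1, -0.10 to 0.15 for Sod2, -0.08 to 0.22 for Prdx3 and -0.16 to 0.18 for Ucp2. With TNF they were -0.31 to -0.02 for Sod1, -0.12 to 0.15 for Cat, -0.15 to 0.15 for Prdx3 and -0.25 to 0.09 for Ucp2. For Prdx3 no pair was called in either state. The 2 values nearest the threshold were SCO against ROSI with TNF, at -0.20, and CAP7 against ROSI with TNF, at -0.20.

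Some uncalled differences between compounds passed the threshold in single alternatives. Prdx3 was lower with SCO than with ROSI in the presence of TNF with a filter of 5 CPM in 4 libraries (-0.20) and without replicate 2 of TNF plus SCO (-0.25). With TNF, Sod2 was lower with CAP7 than with ROSI in limma-voom (-0.17) and without replicate 3 of TNF plus CAP7 (-0.21), and Sod1 was lower with SCO than with CAP7 without replicate 2 of TNF plus SCO (-0.23). Without TNF, Prdx5 was higher with CAP7 than with ROSI in limma-voom (0.14) and with scaling by totals alone (0.17).

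The wider peroxide removal genes did not move as one group. Of a list of 20, with 19 tested, TNF raised 5 and lowered 7 in vehicle-treated cells, where 54.2% of all genes were called (26.7% higher, 27.5% lower), with a median of -0.09 beside -0.01 over all genes. The genes of the list with the lowest p were Sesn3 (-1.44 ± 0.0894), a sestrin, the cytosolic thioredoxin Txn1 (0.74 ± 0.0737), Sesn1 (-1.15 ± 0.125) and Txnrd1 (0.83 ± 0.0951), the cytosolic thioredoxin reductase. Without TNF, SCO raised 7 and lowered 4, CAP7 raised 5 and lowered 6, and ROSI raised 6 and lowered 9 (19.3%, 30.3% and 37.4% of all genes called). Txnrd1 rose with SCO (0.57) and CAP7 (0.84), Srxn1, which repairs overoxidized peroxiredoxins, rose with the same compounds (0.55 and 0.61), and Txn2, the mitochondrial thioredoxin that Prdx3 depends on, rose with CAP7 (0.46) and ROSI (0.55). With TNF, SCO raised 6 and lowered 1, CAP7 raised 6 and lowered 1, and ROSI raised 3 and lowered 4 (21.3%, 32.2% and 35.9%). The medians of this list for SCO, CAP7 and ROSI were 0.01, 0.00 and -0.17 without TNF and 0.10, 0.10 and 0.06 with TNF.

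Gpx1, a glutathione peroxidase of the cytosol and mitochondria, had the lowest p of this list in the test of the difference between states for each compound. With TNF it averaged 495 ± 14.7 CPM with SCO, 598 ± 67.7 with CAP7 and 460.4 ± 31.2 with ROSI, against 349 ± 16.9 with DMSO (SD, n = 4 each). Without TNF the means were 198 ± 7.96 CPM with SCO, 266 ± 27.8 with CAP7 and 146 ± 7.69 with ROSI, against 236 ± 9.33 with DMSO. ROSI thus lowered Gpx1 without TNF (-0.69 ± 0.0708) and raised it with TNF (0.40 ± 0.0696), and the difference was 1.09 ± 0.0993 (edgeR adjusted p = 1.02e-10). For SCO the difference was 0.75 ± 0.0991 and for CAP7 0.60 ± 0.0987.

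Among 11 genes of metal delivery to the dismutases and of mitochondrial uncoupling, 10 were tested, and TNF raised 2 and lowered 6 in vehicle-treated cells, where 54.2% of all genes were called (26.7% higher, 27.5% lower), with a median of -0.33 beside -0.01 over all genes. Slc39a14, a zinc, iron and manganese importer, averaged 71.1 ± 4.54 CPM with TNF plus DMSO and 7.97 ± 0.886 CPM with DMSO (SD, n = 4 each), a log2 fold change of 3.15 ± 0.110. Each compound lowered it in the presence of TNF, at -0.53 for SCO, -0.84 for CAP7 and -0.94 for ROSI. Ucp3, a relative of Ucp2, fell with TNF (-1.68 ± 0.159) and was raised in its presence by SCO (0.93), CAP7 (0.96) and ROSI (1.44). Slc25a39, the mitochondrial glutathione carrier, rose with each compound, at 0.39, 0.66 and 0.69 without TNF and 0.29, 0.45 and 0.48 with TNF for SCO, CAP7 and ROSI. In those 6 comparisons SCO raised 1 and lowered 2, CAP7 raised 2 and lowered 3 and ROSI raised 3 and lowered 3 without TNF (19.3%, 30.3% and 37.4% of all genes called), and with TNF they raised 3, 4 and 5 and lowered 1, 1 and 2 (21.3%, 32.2% and 35.9%). The medians were 0.02, -0.07 and 0.04 without TNF and 0.15, 0.11 and 0.17 with TNF.

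The genes whose level followed a member most closely over the 32 libraries were found by Pearson correlation of log2 CPM among genes averaging at least 16 CPM. For Cybb these were Cxcl1 (0.99), Hpx (0.99) and AW112010 (0.99), and for Sod2 they were Ubd (0.99), Mrpl38 (0.98) and Ptges (0.98). For Sod1 they were Mpc2 (0.99), Pmvk (0.99) and Uqcr10 (0.99), for Cat Esrra (0.99), Ces1f (0.99) and Dgat1 (0.98), for Prdx3 Cox5a (0.98), Dlat (0.97) and Mcrip2 (0.97), and for Ucp2 Gpd1 (0.97), Cavin2 (0.97) and Cidec (0.97). Sod3 was closest to Colgalt1 (0.93), Prdx5 to Smpd1 (0.96) and Nox4 to Rhobtb3 (0.84). The libraries share 8 treatments, so genes with like group means score high, and the split by TNF alone can be enough. Cybb and Sod2 correlated at 0.955 over the 32 libraries, but at 0.0773 in those without TNF and 0.0947 in those with it. Whether the genes named here follow a member across the compounds was not tested.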

How the data were processed

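The authors deposited raw, unnormalized counts of Ensembl genes in 1 table with a column for each library. The submitters' processing notes name STAR 2.7.11b, HTSeq 2.0.5, cutadapt 4.9, limma 3.60.6, R 4.4.1 and the build GRCm39. Per the labels' protocols, libraries were made from total RNA with the QuantSeq 3' mRNA method, which reads transcript ends. The strand setting and the handling of reads that fit several genes are not given in the sources at hand, so genes with overlapping partners or near-identical copies are uncertain.

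Of 57186 listed genes, 28862 were detected, and filterByExpr by group kept 14428. Symbols came from a GENCODE annotation of GRCm38 (51880 listed and 13983 tested genes matched). All 32 libraries entered 1 fit in edgeR 4.0.16 under R 4.3.3, with TMM factors, 1 mean per group, 24 residual degrees of freedom and a common biological coefficient of variation of 0.112. The quasi-likelihood F test was applied to 19 contrasts, p-values were adjusted over all tested genes by Benjamini and Hochberg, and intervals are 95%. Library totals had a median of 20.9 M counts (group means 15 to 24.2 M), which sets the precision of low genes such as Nox4. Replicates were compared in 48 pairs, and none was alike within sampling noise (lowest chi-square per degree of freedom 6.5). The methods were also run on simulated counts in which few genes changed, as many up as down. That setting is simpler than these data and cannot test the scaling.

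The named genes are the 10 members and up to 4 genes of lowest p per list and comparison. Added to these are the 3 genes most like each tested member. For that likeness an average of 1 count, scaled to the size of each library, was added before the log. The members and lists were chosen with earlier results of these data known. Alternatives were RLE factors, library totals alone, no filter, a filter of 5 CPM in 4 libraries, DESeq2 1.42.0, limma-voom in limma 3.58.1, a replicate block, a fit of the compared groups alone, and leaving out each library. Promoters of RefSeq on GRCm38.p6 were searched on both strands. The value of 1 listed gene is not reported here.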

Additional observations from a re-analysis of the deposited data

Results flagged for a closer look

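Of 73 sets of 4 values tested for a library far from the others, 1 was marked, where chance marks about 1 in 20: Cat in TNF plus CAP7, with 164 CPM in replicate 3 against 139.6 to 142 CPM in the other 3.

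The response to a compound differed between the states in 7 of 27 tests of that difference, all larger with TNF than without (edgeR, adjusted p under 0.05). Over all genes 4.64% were called for SCO, 16.2% for CAP7 and 14.6% for ROSI, and 3.51%, 10.3% and 10.1% were called in that direction. The 27 include the tests of Cybb, for which the data give no usable estimate. For Cat the difference was 0.33 log2 units for SCO, 0.55 for CAP7 and 0.40 for ROSI. For Sod1 it was 0.42 for CAP7 and 0.41 for ROSI. For Ucp2 it was 0.44 for CAP7 and 0.70 for ROSI. Each of these genes fell with TNF in vehicle-treated cells and rose with the compounds in both states.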

How the results depend on the processing

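No called member changed direction in any alternative. Outside the fits that left out a library, 15 of 724 calls were lost and 16 were gained over 1343 values, and 34 uncalled values changed sign. Leaving out each library lost 44 of 784 calls and gained 8 over 1584 values, and 77 uncalled values changed sign. These totals include Cybb, whose calls for TNF against none rest on almost no counts without TNF and could hardly be lost. Nox4 did not pass the filter of 5 CPM in 4 libraries, so its calls were not tested in that setting. Counted with Cybb, the number of members called for CAP7 against ROSI without TNF was 4 in DESeq2 and 2 in edgeR. For SCO against CAP7 without TNF it was 2 with library totals alone, in DESeq2 and in a fit of those groups alone, and 1 otherwise, with 0 to 2 when a library was left out. In a fit of the compared groups alone it was 1 for CAP7 against ROSI with TNF (3 in the fit of all groups, 1 to 4 with a library left out) and 1 for SCO against CAP7 with TNF (2, and 1 to 3). For the SCO difference between states it was 2 in DESeq2, 1 in edgeR and 0 to 2 with a library left out. The cause of these shifts was not tested. The counts of members called in the other comparisons stayed within 1.5 times. Libraries of the same replicate number showed no strong pairing: over 112 such pairs the correlation of deviations was -0.09 to 0.14, and 1 pair was over 0.1. However, 17 of 32 libraries were closest to their own number among the 4 replicate numbers, so a weak pairing may remain. With a replicate block the Prdx5 change with CAP7 and TNF was 0.13 with an adjusted p of 0.0514, and no other call changed. Low counts limit the precision for Nox4 and for Cybb without TNF, and Cyba was at 0 in 30 of the 32 libraries.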
